A study of Mus musculus with 6 samples.

Results

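The mitosis and spindle genes are 36 genes whose products bring a cell into mitosis, build the spindle, hold chromosomes to it and complete cytokinesis. They were chosen by gene symbol from the authors' table of 26452 genes, and each of the 36 symbols was found there. All 36 had a mean normalized count of at least 1 and were among the 22071 genes tested. The table gives the messenger RNA of whole spleens of male mice aged 10 weeks. There were 3 Was knockout mice (Was -/-, strain 129S6/SvEvTac-Wastm1Sbs/J), with libraries KO451, KO452 and KO457. They were compared with 3 wild-type mice of strain 129S6/SvEvTac, with libraries WT453, WT454 and WT455, and the labels name no agent for either group. The product of Was drives actin assembly in blood cells. The labels give no cell sorting and no batch, so each library is the mixed RNA of 1 animal's spleen.

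Most mitotic genes are silent in resting cells and are transcribed late in the division cycle. The MuvB complex, with B-Myb and FoxM1, activates many of them at promoters that carry a cell cycle gene homology region (CHR) and CCAAT boxes, the binding sites of NF-Y. In the mouse spleen, dividing cells include red cell precursors of the red pulp, immature myeloid cells, activated lymphocytes and germinal centre B cells.

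Between 30661759 and 38402758 reads per library were assigned to genes. Normalized counts are reads divided by the authors' size factor of the library. Was had 508 in KO451, 407 in KO452 and 409 in KO457, against 4142 in WT453, 6561 in WT454 and 6279 in WT455. The knockout libraries lay far below the wild-type libraries, at a log2 fold change of -3.66 ± 0.25 (SE, n = 3 against 3, limma, Benjamini-Hochberg adjusted p = 0.0117). B cell, T cell and red pulp macrophage genes of the spleen (Ms4a1, Cd3e, Spic and Vcam1) had reads in all 6 libraries. WT453 stood apart from the other wild-type libraries. Its summed normalized count of 10 handling stress genes was 42186, against 6389 to 8650 in knockout and 9597 to 10047 in the other wild-type libraries. Of the 10, Egr1 (753) and Atf3 (80.4) were lower in WT453 than in WT454 and WT455. Collagen genes were also far higher in WT453. Col1a1 had 2519 there, against 22.5 to 57.1 in knockout, 14.7 in WT454 and 8.31 in WT455. Col3a1 had 1762.5 and Col1a2 1079 in WT453, against at most 21.4 and 40 in any other library. The endothelial gene Stab2 was lowest in WT453 (610). The sample weight of WT453, estimated by limma, was 0.178, against 0.858 to 1.46 for knockout libraries and 1.73 to 2.48 for the other wild-type libraries. Fold changes that differ by more than 1.5 times when WT453 is left out are given with and without it.

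The mean log2 level of all 36 mitosis and spindle genes was higher in knockout than in wild-type spleens, a direction shared by 47.7% of all genes tested. None passed the test on all 6 libraries. The median log2 fold change was 1.10, or 2.15-fold, beside -0.03 over all genes tested, and the genes ranged from 0.64 (Ndc80) to 1.66 (Ccnb1). With limma, 0 of 36 had a Benjamini-Hochberg adjusted p under 0.05, where 0.00906% of all genes tested did. Their adjusted p lay between 0.344 and 0.723. At an unadjusted p under 0.05 there were 8 genes, or 22.2%, beside 5.5% of all genes tested that were higher in knockout at this level. They were Ccnb1, Nusap1, Cdca8, Kif4, Ttk, Ccnb2, Ect2 and Hmmr. In the authors' deposited table, 4 of 36 (11.1%) were higher with an FDR under 0.05, beside 2.14% of its genes. Those were Ccnb1 (0.00196), Nusap1 (0.0043), Cdca8 (0.00552) and Kif4 (0.0103), by the FDR in the authors' deposited table. All knockout libraries lay above all wild-type libraries in the same 4 genes, a share of 11.1% close to the 9.54% of all genes tested. In bulk RNA, more cells of a type and more RNA per cell cannot be told apart. Each limma p-value and SE rests on the spread between the animals, which limma draws towards that of genes of similar level.

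One order of libraries was found in all 36 genes. Among knockout spleens, KO451 was highest, KO457 next and KO452 lowest, and among wild-type spleens WT453 was highest, WT455 next and WT454 lowest, an order that 5.94% of all genes tested showed. Together the 36 genes took 0.658% of reads in KO451, 0.232% in KO452 and 0.354% in KO457, against 0.440% in WT453, 0.104% in WT454 and 0.156% in WT455. The group means were 0.415% ± 0.220 in knockout and 0.233% ± 0.181 in wild-type spleens (SD, n = 3 each). WT453 thus held more of these transcripts than KO452 and KO457, while WT454 and WT455 lay below every knockout library. The pooled SD within groups of the mean log2 level of the 36 genes was 0.911. KO451 exceeded KO452 by a median of 1.57 on the log2 scale, beside the median log2 fold change of 1.10. All 3 knockout libraries lay above both WT454 and WT455 in 36 of 36 genes, beside 19.2% of all genes tested.

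**Figure D1:**
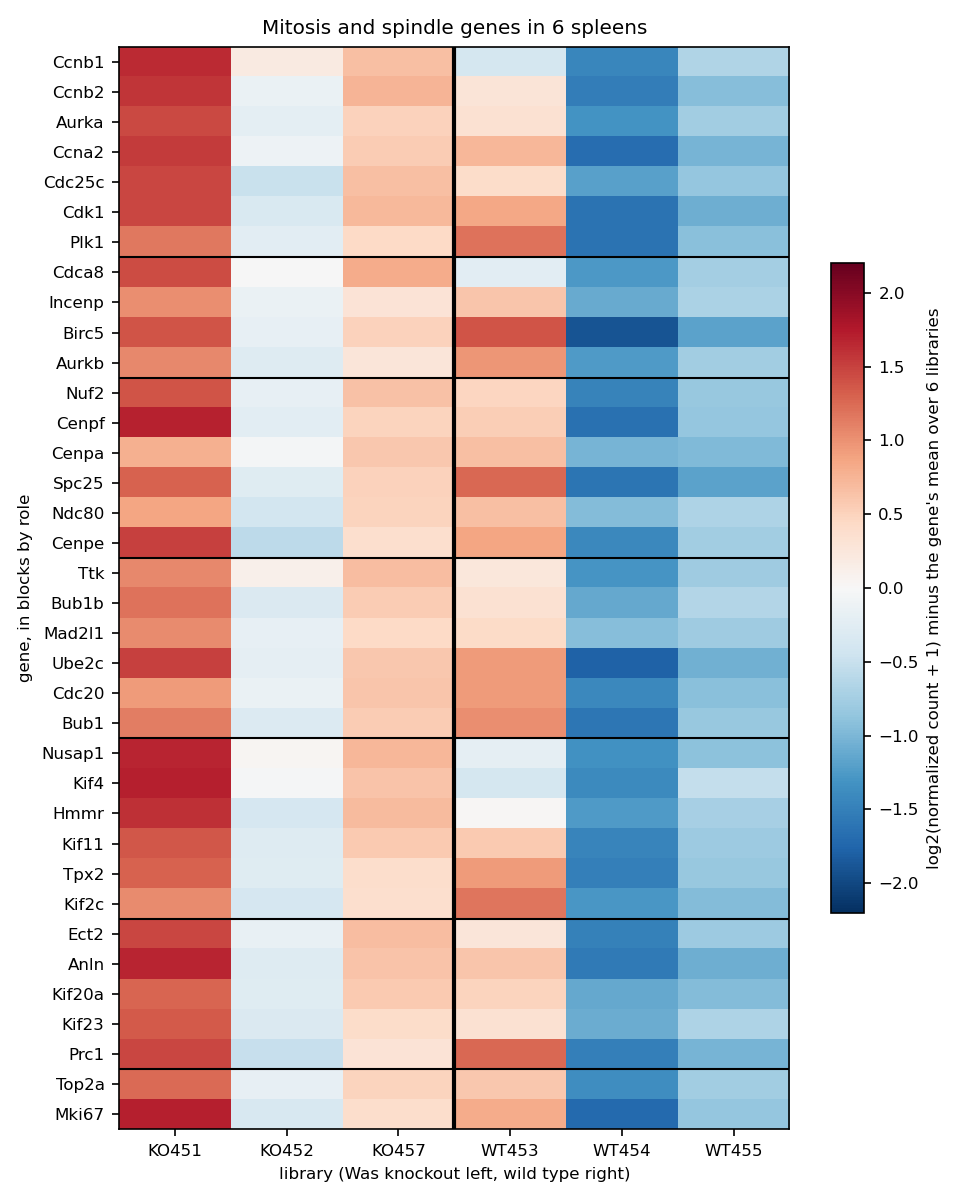
Each row is a gene, in blocks by role, and each column a library, with Was knockout left and wild type right. Colour is log2(normalized count + 1) minus the gene's mean over the 6 libraries. KO451 is the highest library in 34 of 36 rows and WT454 the lowest in 36 of 36.

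The genes of entry into mitosis had a median log2 fold change of 1.23 over 7 genes, and 1.88 without WT453. Cyclin B1 (Ccnb1), which activates Cdk1 at the onset of mitosis, had normalized counts of 5706 in KO451, 2091 in KO452 and 2903 in KO457, against 1394.5 in WT453, 676 in WT454 and 1163 in WT455. Every knockout library was above every wild-type library, and the lowest knockout value, in KO452, exceeded the highest wild-type value, in WT453. The log2 fold change of Ccnb1 was 1.66 ± 0.43 (SE), with an unadjusted p of 0.00565 and an adjusted p of 0.344 (limma). A two-sided exact permutation test of Ccnb1 gave p = 0.1, the smallest that 3 against 3 can give. Cyclin B2 (Ccnb2), its partner B-type cyclin, had 7897 in KO451, 2402 in KO452 and 4493 in KO457, against 3238.5 in WT453, 926 in WT454 and 1392 in WT455. Here WT453 lay above KO452 and the groups overlapped, at 1.45 ± 0.56 (SE, limma, adjusted p = 0.425). Cdk1, the kinase that both cyclins activate, had 6408 in KO451, 1834 in KO452 and 3795 in KO457, against 4155 in WT453, 748 in WT454 and 1101 in WT455. WT453 exceeded KO457 as well as KO452 for Cdk1, and its log2 fold change was 1.23 ± 0.70 (SE), or 1.96 without WT453.

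Cyclin A2 (Ccna2), which acts with Cdk1 and Cdk2 through replication and early mitosis, had a log2 fold change of 1.31 ± 0.66 (SE), or 2.004 without WT453. Aurora kinase A (Aurka), which acts at the spindle poles, had 1.17 ± 0.54 (SE). Cdc25c, a phosphatase that activates Cdk1, was the lowest of the 36 genes per length, at a mean of 87.5 normalized counts per kb of exon. Cdc25c had 970.3, 249 and 557 in KO451, KO452 and KO457, against 461, 152 and 193 in WT453, WT454 and WT455, in the usual order of libraries, with a log2 fold change of 1.10 ± 0.60 (SE). Polo-like kinase 1 (Plk1), which acts at centrosomes and kinetochores, had 4339 in KO451, 1655 in KO452 and 2636 in KO457, against 4466 in WT453, 634 in WT454 and 1031 in WT455. For Plk1, WT453 was the highest of the 6 libraries, and the log2 fold change was 0.90 ± 0.72 (SE) with WT453 and 1.72 without it. An exact permutation test of Plk1 over all 6 libraries gave p = 0.5 (two-sided).

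In the chromosomal passenger complex, the kinase assembly that corrects faulty attachments and then moves to the midzone, the 4 subunits had a median log2 fold change of 0.96, and 1.55 without WT453. Borealin (Cdca8), which targets the complex to centromeres, had 4541.5 in KO451, 1656 in KO452 and 2951 in KO457, against 1423 in WT453, 693 in WT454 and 1001.5 in WT455. Knockout and wild-type libraries did not overlap, at 1.50 ± 0.42 (SE, limma, unadjusted p = 0.0087, adjusted p = 0.349). The scaffold Incenp had 6898 in KO451, 3072 in KO452 and 4205 in KO457, against 5157 in WT453, 1579 in WT454 and 2106 in WT455. Only KO451 lay above WT453, and the log2 fold change of Incenp was 0.79 ± 0.49 (SE), or 1.29 without WT453. Survivin (Birc5) had 7351.5 in KO451, 2468 in KO452 and 4005 in KO457, against 7324 in WT453, 752 in WT454 and 1236 in WT455. KO451 and WT453 were nearly equal for Birc5, and its SE of 0.83 was the largest of the 36 genes around a log2 fold change of 1.14, which was 2.11 without WT453. Aurkb, the kinase of the complex, had 0.69 ± 0.60 (SE), or 1.35 without WT453. The 4 genes encode subunits of 1 complex, yet WT453 exceeded the mean of the other wild-type libraries 1.71-fold for Cdca8, 2.83-fold for Incenp, 3.9-fold for Aurkb and 7.59-fold for Birc5.

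The 6 centromere and outer kinetochore genes had a median log2 fold change of 0.96, and 1.64 without WT453, and 0 of 6 had an unadjusted p under 0.05 (limma). Nuf2, a subunit of the Ndc80 complex that binds microtubules, had 3508 in KO451, 1185 in KO452 and 2097.5 in KO457, against 1877 in WT453, 485 in WT454 and 757 in WT455. WT453 lay between KO457 and KO452, and the log2 fold change of Nuf2 was 1.22 ± 0.57 (SE). Cenpf, a large protein of the outer kinetochore, had 5365 in KO451, 1423 in KO452 and 2346 in KO457, against 2429 in WT453, 537 in WT454 and 920.5 in WT455. WT453 exceeded KO457 slightly for Cenpf, at a log2 fold change of 1.30 ± 0.65 (SE). The other Ndc80 complex subunits had 1.03 ± 0.76 (Spc25) and 0.64 ± 0.50 (Ndc80), the smallest of the 36, or 1.91 and 1.13 without WT453. Cenpa, the histone variant of centromeric chromatin, had 0.89 ± 0.48, and the kinetochore motor Cenpe had 0.87 ± 0.69 (log2 fold change ± SE). Without WT453 they had 1.45 (Cenpa) and 1.52 (Cenpe).

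Among the 6 genes of the spindle checkpoint and the anaphase-promoting complex, the median was 0.95, and 1.64 without WT453. Ttk, the kinase that starts checkpoint signalling at unattached kinetochores, had 1009 in KO451, 522 in KO452 and 774 in KO457, against 576 in WT453, 197 in WT454 and 284 in WT455. WT453 lay above KO452 for Ttk, and the log2 fold change was 1.22 ± 0.44 (SE, limma, unadjusted p = 0.0276, adjusted p = 0.403). Bub1b, a subunit of the mitotic checkpoint complex, had 4565 in KO451, 1588 in KO452 and 2932 in KO457, against 2496 in WT453, 907 in WT454 and 1276 in WT455. WT453 was again between KO457 and KO452, and the log2 fold change of Bub1b was 0.96 ± 0.49 (SE). The checkpoint components Mad2l1 and Bub1 had 0.87 ± 0.45 and 0.93 ± 0.68, with Bub1 at 1.68 without WT453. Cdc20, the activator that the checkpoint holds back, had 0.93 ± 0.61, with 3748, 1763 and 2989 in KO451, KO452 and KO457, against 3744.5, 735 and 1029 in WT453, WT454 and WT455. KO451 and WT453 were nearly equal for Cdc20, whose log2 fold change was 1.64 without WT453. Ube2c, the ubiquitin-conjugating enzyme of the complex, had 1.26 ± 0.73 (log2 fold change ± SE), or 2.05 without WT453.

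The spindle motors and assembly factors held 3 of the 8 genes with an unadjusted p under 0.05, and their median log2 fold change was 1.20, or 1.66 without WT453. Nusap1, a microtubule-bundling protein of the spindle, had 9032.5 in KO451, 2940 in KO452 and 4694 in KO457, against 2467.5 in WT453, 1125 in WT454 and 1516 in WT455. The groups did not overlap for Nusap1, at 1.63 ± 0.46 (SE, limma, unadjusted p = 0.00864, adjusted p = 0.349). The chromokinesin Kif4, which moves along microtubules on chromosome arms and to the midzone, had 3917.5 in KO451, 1170 in KO452 and 1847 in KO457, against 918 in WT453, 451.15 in WT454 and 829 in WT455. The groups did not overlap for Kif4 either, at 1.54 ± 0.48 (SE, limma, unadjusted p = 0.0141, adjusted p = 0.355). Hmmr, a hyaluronan receptor that also binds the spindle, had 1.30 ± 0.54 (SE). Kif11, the motor that pushes the poles apart, had 1.10 ± 0.59, and Tpx2, an activator of Aurora A, had 0.94 ± 0.66. Without WT453 they had 1.67 (Kif11) and 1.64 (Tpx2). Kif2c, a kinesin that disassembles microtubule ends, had 1743 in KO451, 657 in KO452 and 1098 in KO457, against 1909.9 in WT453, 349 in WT454 and 433 in WT455. WT453 was the highest library for Kif2c, and its log2 fold change was 0.71 ± 0.67 (SE) with WT453 and 1.47 without it.

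For the midzone and cytokinesis the median over 5 genes was 1.07, and 1.69 without WT453. Ect2, which activates RhoA at the cell equator, had 2503 in KO451, 808 in KO452 and 1441 in KO457, against 1087 in WT453, 321 in WT454 and 519 in WT455. WT453 lay above KO452 for Ect2, and the log2 fold change was 1.33 ± 0.55 (SE, limma, unadjusted p = 0.0438, adjusted p = 0.443). Anillin (Anln), the scaffold of the contractile ring, had 3123 in KO451, 809 in KO452 and 1510.5 in KO457, against 1495.5 in WT453, 333 in WT454 and 464 in WT455. KO457 and WT453 were close for Anln, at 1.35 ± 0.67 (SE). The midzone kinesins had 1.07 ± 0.53 (Kif20a) and 0.95 ± 0.51 (Kif23), and the microtubule bundler Prc1 had 0.84 ± 0.78 (log2 fold change ± SE), or 1.69 without WT453.

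Top2a, the topoisomerase that untangles sister chromatids, had 19599 in KO451, 7278 in KO452 and 11593 in KO457, against 12485 in WT453, 3202 in WT454 and 4852 in WT455. Mki67, the coat of mitotic chromosomes and the usual marker of dividing cells, had 56951 in KO451, 13656 in KO452 and 22814 in KO457, against 30817 in WT453, 5300.4 in WT454 and 9633 in WT455. In both genes WT453 stood second to KO451, and the log2 fold changes were 1.03 ± 0.55 for Top2a and 1.17 ± 0.73 for Mki67 (SE). Without WT453 they were 1.58 and 1.87. Mki67 had the highest level per length, at a mean of 2305 normalized counts per kb of exon, followed by Ccnb2 (2215), Ccna2 (1951) and Ube2c (1918). The median over the 36 genes was 424 normalized counts per kb, and the highest gene was 26.4-fold above the lowest.

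The genes differed more among themselves in how high WT453 stood than in how far KO451 stood above KO452. WT453 exceeded the mean of WT454 and WT455 by between 1.5-fold (Kif4) and 7.59-fold (Birc5), with a median of 1.66 on the log2 scale. After Kif4, the smallest ratios were those of Ccnb1 (1.57-fold), Cdca8 (1.71-fold), Nusap1 (1.89-fold) and Hmmr (2.02-fold). At the other end, below Birc5, stood Spc25 (6.3-fold), Prc1 (5.75-fold), Plk1 (5.52-fold) and Ube2c (5.14-fold). WT453 was the highest of the 6 libraries in 2 genes, at rank 2 in 18, at rank 3 in 12 and at rank 4 in 4. The genes at rank 4 are by definition the 4 whose groups do not overlap, because WT453 was the highest wild-type library in all 36. KO451 exceeded KO452 by 0.83 (Cenpa) to 2.07 (Cenpe) on the log2 scale. Which genes have a low WT453 ratio was seen in the same libraries and was not tested.

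**Figure D2:**
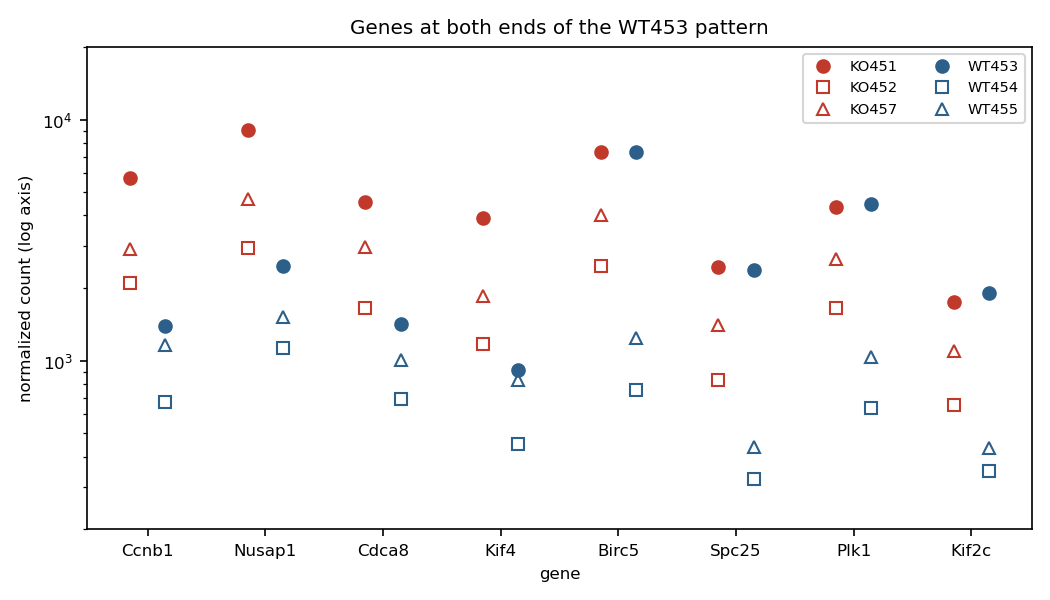
Normalized counts on a log axis for 8 genes, with the 3 Was knockout libraries left (red) and the 3 wild-type libraries right (blue) of each position. WT453 (filled blue) lies below all knockout libraries for Ccnb1, Nusap1, Cdca8 and Kif4, and at the height of KO451 for Birc5, Spc25, Plk1 and Kif2c.

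Without WT453, the median log2 fold change of the 36 genes was 1.67, beside -0.01 over all genes tested, and the genes ranged from 1.13 (Ndc80) to 2.11 (Birc5). At an unadjusted p under 0.05 (limma) there were then 30 of 36 genes, beside 8.53% of all genes tested. Their adjusted p lay between 0.215 and 0.315, and 0 of 36 passed. Without KO451 the median was 0.70, with 4 genes (11.1%) at an unadjusted p under 0.05, beside 3.44% of all genes tested. Without both KO451 and WT453, an alternative chosen after seeing the data, it was 1.29, with 25 genes (69.4%) at that level, beside 8.33% of all genes tested, and 0 at an adjusted p under 0.05 (limma). Birc5 moved most when WT453 was left out, and Ccnb1 kept 1.88 without WT453 and 1.26 without KO451.

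**Figure D3:**
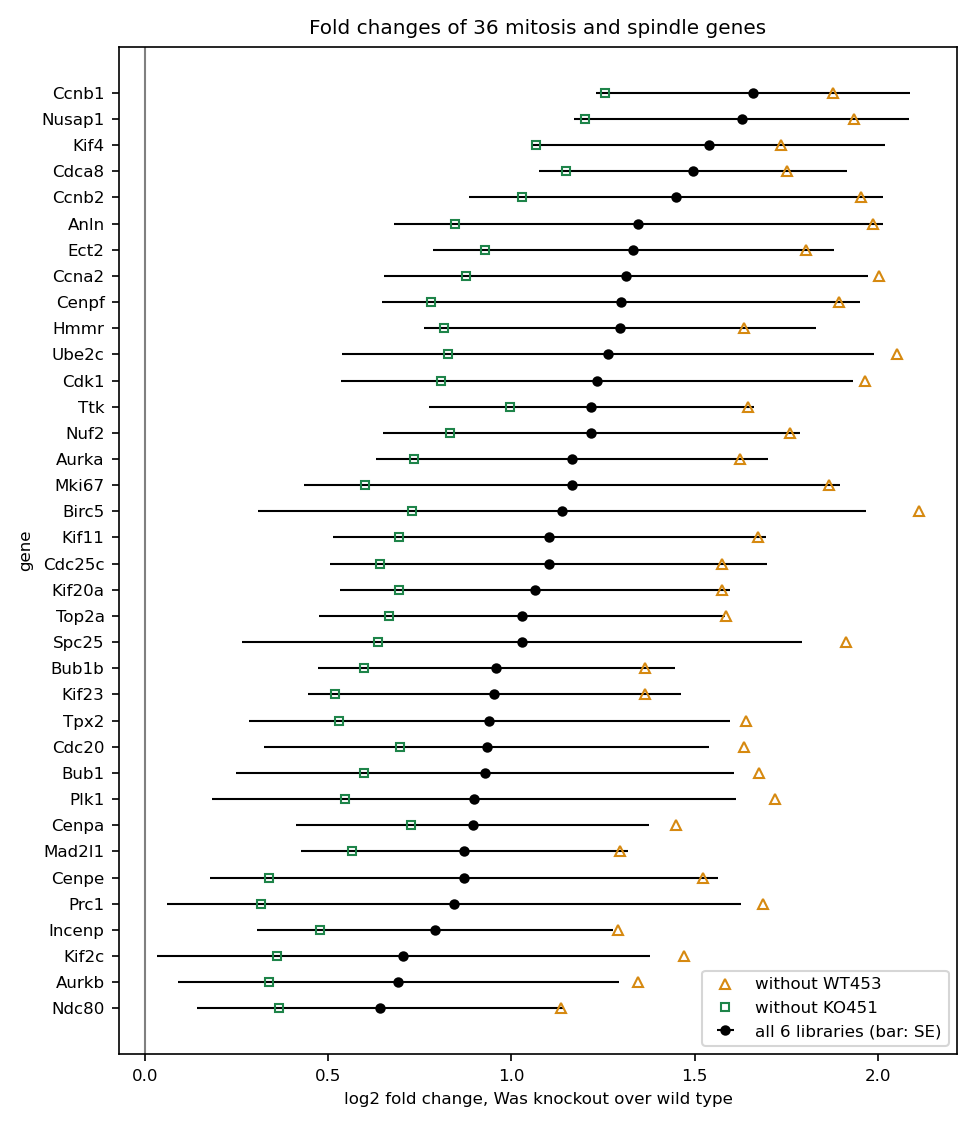
Log2 fold change of Was knockout over wild type for each of the 36 genes, from all 6 libraries (circles, bars SE), without WT453 (triangles) and without KO451 (squares). All points lie above 0, from 0.64 (Ndc80) to 1.66 (Ccnb1) with all libraries, and all are higher without WT453 and lower without KO451.

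Promoters were read for the 36 genes from RefSeq (GRCm38.p6), 250 bases before to 50 after the start, and 32 promoters of 30 genes were found. Ect2 and Prc1 each entered with 2 overlapping windows that share their CHR and CCAAT matches, so these sites count more than once below. A CHR was searched in a pair of forms, of which the first and more common one in the promoters of these genes reads TTTGAA. The other form differs from it in a single base near the middle and reads TTCGAA, which is its own reverse complement. The box bound by NF-Y was searched by the 5 letters that give it its name. An E2F site was searched as TTTGGCGC, TTTCCCGC, GCGCGAAA or GCGGGAAA, the second and the last of which are reverse complements. Both strands were searched for each motif. A CHR was found in 26 of 32 promoters (81.2%), beside 19.2% of all 32851 promoters. CCAAT was found in 25 (78.1%, beside 37.4%), and at least 2 CCAAT in 18 (56.2%, beside 11.7%). Both a CHR and CCAAT were found in 23 (71.9%, beside 7.52%). An E2F site was found in 1, that of Cdk1 (3.12%, beside 1.84%). These are matches of letters, not measured binding. The RefSeq start of Kif2c lies 3.87 kb, and that of Cdca8 2.39 kb, inside the gene as GENCODE draws it, so these windows are not at the gene's outer end. For Kif4 the distance is 0.328 kb, and the other starts lie nearer.

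Promoters are shown for 3 sets of genes. Ccnb1 at chr13:100786437-100786736 (minus strand), Nusap1 at chr2:119618048-119618347 (plus strand), Cdca8 at chr4:124936868-124937167 (minus strand) and Kif4 at chrX:100625815-100626114 (plus strand) are the 4 genes whose groups do not overlap. Plk1 at chr7:122159185-122159484 (plus strand) is 1 of the 2 in which WT453 was highest. Top2a at chr11:99024140-99024439 (minus strand) held the most matches. Each is given 5′ to 3′ on the gene's strand, with matches to a CHR or a CCAAT box in capitals. A match on the opposite strand reads TTCAAA for the first form of the CHR, and ATTGG for a CCAAT box.
Ccnb1: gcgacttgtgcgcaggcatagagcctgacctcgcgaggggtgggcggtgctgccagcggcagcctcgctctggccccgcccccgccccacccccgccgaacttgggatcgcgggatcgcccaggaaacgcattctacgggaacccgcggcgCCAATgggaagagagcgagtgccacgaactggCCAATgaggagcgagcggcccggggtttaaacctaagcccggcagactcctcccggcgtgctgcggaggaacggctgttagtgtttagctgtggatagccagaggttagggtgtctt
Nusap1: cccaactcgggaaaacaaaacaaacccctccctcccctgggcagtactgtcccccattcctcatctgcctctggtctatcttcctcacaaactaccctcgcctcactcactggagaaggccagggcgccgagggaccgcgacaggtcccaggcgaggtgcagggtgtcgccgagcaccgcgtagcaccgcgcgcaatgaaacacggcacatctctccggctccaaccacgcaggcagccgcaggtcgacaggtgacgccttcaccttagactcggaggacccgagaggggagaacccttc
Cdca8: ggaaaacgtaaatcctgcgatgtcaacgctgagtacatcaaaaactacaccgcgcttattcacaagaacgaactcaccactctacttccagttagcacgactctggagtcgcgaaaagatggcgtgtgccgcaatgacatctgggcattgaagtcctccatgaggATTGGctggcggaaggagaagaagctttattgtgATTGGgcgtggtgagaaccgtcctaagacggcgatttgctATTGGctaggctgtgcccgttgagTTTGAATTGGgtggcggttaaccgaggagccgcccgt
Kif4: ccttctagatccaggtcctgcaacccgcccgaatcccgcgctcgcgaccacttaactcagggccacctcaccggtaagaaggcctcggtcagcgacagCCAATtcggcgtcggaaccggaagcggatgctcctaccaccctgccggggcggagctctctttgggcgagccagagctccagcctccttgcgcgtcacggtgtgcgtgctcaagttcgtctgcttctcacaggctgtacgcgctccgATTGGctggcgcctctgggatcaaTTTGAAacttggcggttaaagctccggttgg
Plk1: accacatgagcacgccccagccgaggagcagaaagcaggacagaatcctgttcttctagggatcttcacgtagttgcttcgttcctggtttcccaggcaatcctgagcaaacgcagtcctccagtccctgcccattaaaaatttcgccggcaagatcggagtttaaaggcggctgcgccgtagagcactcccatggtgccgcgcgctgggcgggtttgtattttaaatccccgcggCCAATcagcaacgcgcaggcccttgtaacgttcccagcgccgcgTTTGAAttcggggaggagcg
Top2a: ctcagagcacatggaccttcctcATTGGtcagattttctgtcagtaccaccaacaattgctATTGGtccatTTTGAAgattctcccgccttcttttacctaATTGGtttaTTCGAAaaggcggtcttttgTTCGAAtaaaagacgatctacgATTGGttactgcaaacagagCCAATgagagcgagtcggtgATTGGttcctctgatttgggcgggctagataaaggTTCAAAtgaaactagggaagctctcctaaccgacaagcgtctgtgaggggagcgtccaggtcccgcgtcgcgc
Among the first 4, Cdca8 held 1 CHR and 4 CCAAT, of which 1 shares a base with the CHR, and Kif4 held 1 and 2. Ccnb1 held 2 CCAAT and no CHR of these letters, and Nusap1 held neither in this window. Plk1 held 1 CHR and 1 CCAAT. Top2a held 4 CHR and 6 CCAAT. Birc5, with the highest WT453 ratio, held neither.

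**Figure D4:**
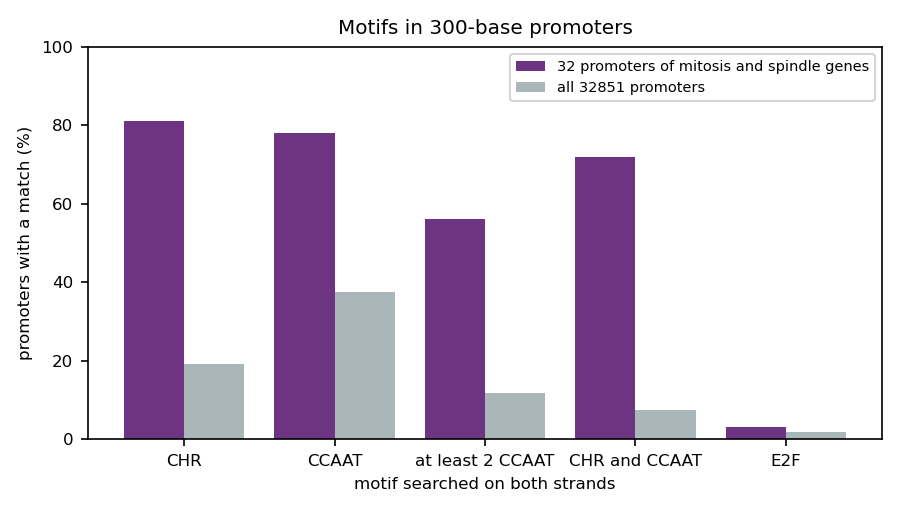
Share of 300-base promoters with a match to each motif on either strand, for the 32 promoters of mitosis and spindle genes (purple) and for all 32851 promoters (grey). For a CHR together with CCAAT the shares are 71.9% and 7.52%.

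Other genes of the division machinery that rise and fall with the cycle were measured as well. All 69 other mitosis genes had a higher mean in knockout spleens (median log2 fold change 1.02, or 1.55 without WT453), beside 47.7% of all genes tested. Of them 17 had an unadjusted p under 0.05 (limma), beside 5.5% of all genes tested that were higher at this level. The 3 with the smallest p were Cenpp (1.56) and Oip5 (1.63), both of the centromere, and the kinetochore gene Zwint (0.67). Zwint had 3596, 2486 and 2787 in KO451, KO452 and KO457, against 1757, 1828 and 1943 in WT453, WT454 and WT455, with knockout libraries above all wild-type libraries and WT453 the lowest. The 8 condensin genes, which compact mitotic chromosomes, were all higher in mean, with a median of 1.04 and of 1.50 without WT453, led by Ncapg2 (1.59), Smc2 (1.34) and Ncaph (1.23).

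Mitosis genes that resting cells also use had smaller values. The 15 subunits and activators of the anaphase-promoting complex had a median of 0.18, 12 higher and 3 lower in mean, with Fzr1 at 0.79, Cdc27 at 0.60 and Anapc11 at 0.24. Cohesin and its loaders had a median of 0.19, or 0.10 without WT453, 9 higher and 3 lower. Among them Esco2, which acetylates cohesin during replication, had 1.58, while Pds5a had -0.90 and Esco1 -0.42. For 14 checkpoint and kinetochore genes of resting cells too, the median was 0.33, or 0.55 without WT453, with Tubgcp2 at 0.69, Pmf1 at 0.55 and Tubg1 at 0.44. The difference between these lists and the 36 genes was not tested.

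Regulators of the cycle were mixed. Of 24 genes of the DREAM, MuvB and E2F factors 18 were higher and 6 lower in mean (median log2 fold change 0.56), and 9 were higher with an unadjusted p under 0.05 (limma), beside 5.5% of all genes tested. The E2F partner Tfdp2 had 9905, 1281 and 1171 in KO451, KO452 and KO457, against 91.7, 343 and 465 in WT453, WT454 and WT455, a log2 fold change of 3.32 ± 0.94 (SE), while E2f4 had 0.89 and the retinoblastoma gene Rb1 1.14. Of 17 inhibitors 8 were higher and 9 lower in mean, with a median of -0.01, or 0.33 without WT453. Wee1, the kinase that restrains Cdk1, had 1.05, Cdkn2c 1.45 and Btg1 -0.68. Cyclins and kinases that act before replication had a median of 0.18 over 14 genes, or 0.29 without WT453, with Ccne1 at 1.27, Cdk2 at 1.14 and Ccne2 at 1.55, or 2.38 without WT453. All 36 replication genes were higher in mean, with a median of 1.01, beside 47.7% of all genes tested. Of them 18 had an unadjusted p under 0.05 (limma), beside 5.5% of all genes tested. The replication genes with the smallest p were Pola1 (1.51), Cdc6 (1.88) and Dut (1.15). In WT453, the mean deviation from a gene's mean over the libraries was 0.58 for the 36 mitosis genes and 0.10 for the replication genes. In KO451 it was 1.35 and 1.17, in KO452 -0.22 and -0.04, and in KO457 0.54 and 0.35. In WT454 it was -1.395 and -0.98, and in WT455 -0.86 and -0.60. None of the genes named from these other lists of the division cycle passed at an adjusted p under 0.05 (limma).

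Markers of cell types of the spleen were highest in different libraries. All 16 erythroid precursor markers were higher in mean (median log2 fold change 2.69), beside 47.7% of all genes tested, with none at 0 in any library. All 16 had an unadjusted p under 0.05 (limma), beside 5.5% of all genes tested that were higher at this level, and 0 passed after adjustment. In the authors' deposited table, 14 were higher with an FDR under 0.05, beside 2.14% of its genes. The summed normalized count of the 16 markers was 111852 to 458527 in knockout and 24059 to 52371 in wild-type spleens, highest in KO451. The 10 markers of neutrophil and monocyte precursors, none at 0, summed to 163064 to 752696 in knockout spleens, highest in KO457, and 65605.5 to 1147417 in wild-type spleens, highest in WT453. Their median log2 fold change was 0.37, or 1.69 without WT453. KO451 led the erythroid markers and the mitosis genes, and WT453 was highest for the summed neutrophil precursor markers. The summed erythroid markers were 24059 in WT453 and 26904 in WT454, and single markers differed in their wild-type order. Tfrc had 4600 in WT453, 2204 in WT454 and 3800 in WT455, and Gata1 had 1097, 629 and 1051. Slc4a1 had 2712, 5030 and 10461 in the same libraries, and Alas2 had 720, 4156 and 6996. The 10 genes listed for germinal centre B cells, none at 0, summed to 4534 to 6624 in knockout and 4731 to 6342 in wild-type spleens. Of them 7 were higher in mean (median 0.50, or 0.77 without WT453). Gpr183, lower in mean, was a large part of the sums of WT454 and WT455. It had 1071, 1859 and 959 in KO451, KO452 and KO457, against 767, 2570 and 2429 in WT453, WT454 and WT455. Of 10 markers of pro-B and pre-B cells, 7 were higher and 3 lower in mean, with a median of 1.40. In the authors' deposited table, 3 of these 10 were higher with an FDR under 0.05, beside 2.14% of its genes. The 10 markers summed to 5255.5 to 8743 in knockout and 4210.4 to 10586 in wild-type spleens. Large parts of these sums were Il7r and Ebf1, both lower in mean, with 4798 and 3594 in WT454. Rag1 had 387, 334 and 1532 in KO451, KO452 and KO457, against 34, 103 and 48.8 in WT453, WT454 and WT455 (limma, adjusted p = 0.344). Vpreb2 was at 0 in KO452, WT454 and WT455, Rag2 in WT453 and Igll1 in WT455. All 12 red pulp macrophage markers, none at 0, were higher in mean, beside 47.7% of all genes tested, with a median of 1.24, or 0.60 without WT453. They summed to 208965 to 337902 in knockout and 52465 to 181132 in wild-type spleens, lowest in WT453. All 10 mature B cell, 10 T cell and 8 NK cell markers were lower in mean, where 47.7% of all genes tested were higher. Their medians were -0.78, -0.59 and -0.49, and none was at 0. Without WT453 the medians were -1.13, -0.96 and -1.02. Mature B cell markers summed to 56969 to 107944 in knockout and 64505 to 172528 in wild-type spleens, and T cell markers to 18520 to 34020 in knockout and 21620 to 49642 in wild-type spleens. NK cell markers summed to 6211 to 10121 in knockout and 7840 to 14537 in wild-type spleens. The part of these cell types in the levels of the 36 genes was not tested.

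**Figure D5:**
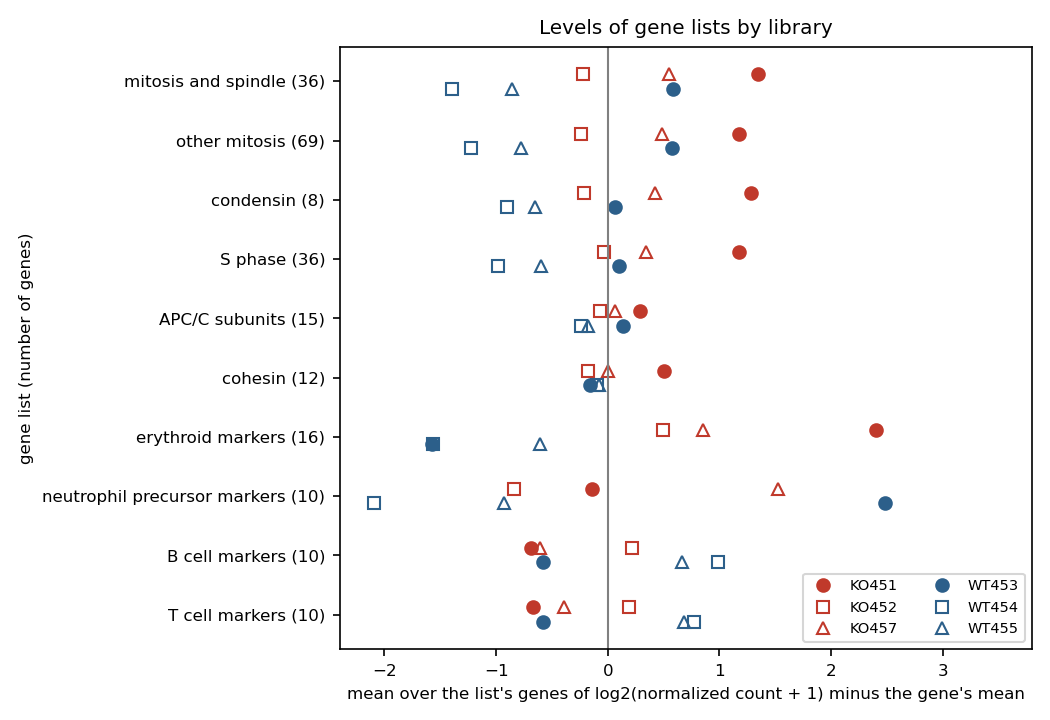
For each gene list, the mean over its genes of log2(normalized count + 1) minus the gene's mean, in each library, with Was knockout in red above wild type in blue. For the 36 mitosis and spindle genes KO451 is at 1.35 and WT453 at 0.58. Erythroid markers put KO451 highest, and neutrophil precursor markers put WT453 highest.

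Exons of 11 of the 36 genes overlap another gene model in the GENCODE annotation of GRCm38, and the strand setting of the counting is not given in the sources used here. Among the 4 genes whose groups do not overlap, Kif4 shares 15.1% of its exon bases with Pdzd11, Cdca8 shares 4.48% with 9930104L06Rik and Nusap1 shares 4.24% with Oip5. Normalized counts of Pdzd11 were 882 to 1438 in knockout and 538 to 792 in wild-type spleens. Those of Oip5 were 330 to 1101 in knockout and 118 to 256 in wild-type spleens. For 9930104L06Rik they were 210 to 238 in knockout and 202 to 492 in wild-type spleens. Kif20a shares 29.3% with Cdc23 and Ube2c shares 22.8% with Tnnc2, which had 0 reads in 5 of the 6 libraries. Prc1 shares 11.1% with Rccd1, whose normalized count was 82.6 to 120 in knockout and 112 to 707 in wild-type spleens, highest in WT453. Ccnb1 has a pseudogene, Ccnb1-ps, that had 314, 74 and 141 in KO451, KO452 and KO457, against 26.8, 29.4 and 49.9 in WT453, WT454 and WT455, a log2 fold change of 2.10 ± 0.58 (SE, limma, adjusted p = 0.349). The pseudogene's order of knockout libraries was that of Ccnb1, but among wild-type libraries WT453 was lowest for the pseudogene. A pseudogene of Ccnb2, Ccnb2-ps, had 78.3, 78 and 62.3 in KO451, KO452 and KO457, against 71.1, 140 and 121 in WT453, WT454 and WT455. Its log2 fold change was -0.54 ± 0.38 (SE). Reads shared by gene and pseudogene cannot be told apart.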

How the data were processed

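The authors deposited 1 table of log2 values for 26452 genes in 6 spleen libraries, 1 per mouse, with their own log2 fold change, p-value and FDR. Per the submitters' processing notes, the build was GRCm38 and the tools were STAR 2.5.3a and StringTie 1.3.1c, with FastQC 0.11.5 and DESeq. The role of each tool, the annotation and strandedness are not stated in these sources. The deposited log2 scale is log2(reads over a size factor, plus 1): whole reads were recovered for 100% of values within 0.001. Column names of the knockout libraries carry a suffix of unstated meaning; if it marks separate processing, that cannot be told apart from genotype.

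Limma 3.58.1 (R 4.3.3), with an intensity trend, was fitted to the deposited log2 values of the 22071 genes with a mean normalized count of at least 1, in a model of 2 groups, with Benjamini-Hochberg adjustment over all of them at 0.05. On this scale the fold change of a gene with few reads comes out too small. No animal number occurs in both groups, so nothing was paired. The fit was checked on simulated data. Levels per kb used merged exons of GENCODE, in which 26404 identifiers were found. Alternatives were pseudocounts of 0.1 and 0.01, other filters, normalizations and weights, each library left out, and a threshold of 0.01.

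The members and the gene lists were chosen with earlier results of these data known. Named were Was, every member, in each role group every library's values for the 1 or 2 members with the smallest p and for members against the direction of most, and in each other list the 3 genes with the smallest p at a mean of at least 1 CPM. Values by library of Cdk1, Plk1, Birc5, Cdc20, Kif2c, Zwint and Tfdp2 and of the overlapping genes were added after they were seen. So were those of single cell type markers, stress and collagen genes, and of the Ccnb1 and Ccnb2 pseudogenes. Depth was 30661759 to 38402758 reads per library. Python 3.11.15 with pandas 2.3.3 was used for the tables.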

Additional observations from a re-analysis of the deposited data

How the results depend on the processing

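The 36 mitosis and spindle genes gave 612 log2 fold changes under 17 alternatives, of which 0 turned below 0 and 0 passed an adjusted p of 0.05 (limma); they ranged from 0.24 to 2.11, with adjusted p from 0.109 to 0.956. Over the 64 genes named by rule, 0 of 1088 values changed direction, and 6 lost a call, all of them Was, whose adjusted p lay between 0.0447 and 0.341 with 1 library left out. The number of all genes called was 2 in the comparison as reported, 1 with voom, 4 with voom and sample weights, 10 without the intensity trend, 0 at a threshold of 0.01, 0 without KO451 and WT453, and 0 to 2 with 1 library left out. It was 0 without KO451, KO452, KO457, WT454 or WT455 in turn. The number of mitosis and spindle genes whose groups do not overlap, 4 of 36, was 36 without KO451 and WT453 (24% of all genes tested were higher with no overlap), and 4 to 36 with 1 library left out: 16 without KO452 (14.6% of all genes) and 36 without WT453 (19.2%), beside 9.54% with all libraries. Their median log2 fold change was 0.65 without WT454, 0.70 without KO451, 1.49 without KO452 and 1.67 without WT453. The cause of these differences was not tested. No paired analysis was possible because the groups share no replicate numbers. With 3 spleens a group, the median SE of the 36 genes was 0.58 on the log2 scale; each gene had at least 186 reads in every library.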
